A study of Mus musculus with 9 samples.

Results

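Small nucleolar RNAs (snoRNAs) and small Cajal body RNAs were followed in the brains of mouse embryos, taken whole at embryonic day 14. The count table was searched for symbols that begin with Snora, Snord or Scarna and a digit, and 113 of its 56748 rows matched, under 112 distinct symbols because Snora43 had a pair of rows. They comprised 37 H/ACA snoRNAs (Snora), 70 C/D snoRNAs (Snord) and 6 small Cajal body RNAs (Scarna). Another 987 rows that the annotation types as snoRNA or small Cajal body RNA have other symbols and are outside these classes.

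The brains came from 3 groups with 3 libraries each. One group was exposed to valproic acid, an anticonvulsant that inhibits histone deacetylases, and another to poly(I:C), a synthetic double-stranded RNA that triggers innate antiviral signalling. The control group received saline. The design text calls the unexposed mice wild type, and the labels name no strain, sex, litter, batch or dose and no exposure time. They also do not say whether libraries of a group came from separate embryos. Sex-linked genes, given below, set replicate 3 apart from replicates 1 and 2 in the poly(I:C) and control groups. The libraries of those groups were thus not all repeats of a single embryo. Whether the other libraries of a group came from separate embryos was not tested. The p-values therefore rest in part on a spread between samples that may be technical. In such bulk samples a lower number of cells of a type and less RNA per cell cannot be told apart.

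H/ACA RNAs guide the conversion of uridine to pseudouridine by the enzyme dyskerin, and C/D RNAs guide methylation of the ribose by fibrillarin. Both act mainly on ribosomal RNA in the nucleolus, whereas small Cajal body RNAs guide the same modifications on spliceosomal RNAs. In mammals most of them are cut out of introns after the host gene is spliced. Several, such as Snord118 (U8) and Snord13 (U13), are transcribed from genes of their own and take part in the processing of ribosomal RNA.

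The sequences below are shown because these 5 RNAs are among the 6 members with the most counts, and because their boxes show how the classes differ. They are GENCODE release M21 transcripts (mouse build GRCm38), written 5′ to 3′ with T for U. Capitals mark the ACA box of the H/ACA RNAs, and the core of the C box (TGATG) and the D box (CTGA) of the C/D RNAs. Snora57 is encoded on chromosome 19, Snora31 on chromosome 14, Snord91a on chromosome 11, Snord72 on chromosome 15 and Snord7 on chromosome 11.
Snora57: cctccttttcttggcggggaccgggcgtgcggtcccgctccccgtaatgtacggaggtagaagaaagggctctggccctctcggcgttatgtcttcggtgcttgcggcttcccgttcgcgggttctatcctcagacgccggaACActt
Snora31: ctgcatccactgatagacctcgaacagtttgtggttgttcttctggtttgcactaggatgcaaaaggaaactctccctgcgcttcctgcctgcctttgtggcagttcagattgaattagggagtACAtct
Snord91a: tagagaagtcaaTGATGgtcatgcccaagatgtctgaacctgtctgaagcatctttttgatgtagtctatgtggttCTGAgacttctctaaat
Snord72: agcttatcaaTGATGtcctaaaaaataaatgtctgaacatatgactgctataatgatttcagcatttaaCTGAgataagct
Snord7: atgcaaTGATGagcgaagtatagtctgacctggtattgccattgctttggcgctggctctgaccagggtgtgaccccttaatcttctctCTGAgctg

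The boxes were searched on the RNA strand alone, and a TGATGA match is also a TGATG match. ACA at exactly 3 nt from the 3′ end was found in 30 of 37 H/ACA RNAs (81.1%) and in 0 of 70 C/D RNAs. TGATG within the first 20 nt was found in 59 of 70 C/D RNAs (84.3%) and in 0 of 37 H/ACA RNAs, and the longer TGATGA in 45 of the 70. CTGA within the last 20 nt was found in 68 of 70 C/D RNAs (97.1%) and in 5 of 37 H/ACA RNAs (13.5%). Of the 6 small Cajal body RNAs, 4 held both TGATG and CTGA in these windows. The symbols and the sequences thus sorted the rows alike in most cases. The H box, searched as ANANNA in the middle 40 nt, did not separate the classes, since 34 of 37 H/ACA RNAs and 41 of 70 C/D RNAs held it.

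Libraries held 15399974 to 19883131 counts each. Ribosomal RNA had been removed and the RNA fragmented at random before library construction, per the labels, and no step that selects or enriches RNAs of this length is described. Brain markers (10 progenitor, neuron and forebrain genes) summed to 6199, 6474 and 6253 CPM (counts scaled to library size with TMM factors) in the valproic acid libraries, 6278, 6415 and 6320 CPM in the poly(I:C) libraries and 6133, 6346 and 6281 CPM in the control libraries. All 3 valproic acid libraries and replicate 3 of poly(I:C) held Xist, which silences an X chromosome in females, at 979 to 1054 CPM, and the highest other library was at 0.236 CPM. Genes of the Y chromosome (Kdm5d, Uty, Eif2s3y and Ddx3y) summed to 196 to 201 CPM in replicates 1 and 2 of the poly(I:C) and control groups and to 0 elsewhere. Sex-linked expression thus moved with the valproic acid group, and control replicate 3 carried neither signal.

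Fewer members had counts than rows of the table as a whole. At least 1 count was present for 46 of them (40.7%) and 67 were at 0 in all 9 libraries, whereas 56.6% of all rows had a count. The members with counts were 14 of 37 H/ACA RNAs (37.8%), 28 of 70 C/D RNAs (40%) and 4 of 6 small Cajal body RNAs (66.7%). Together they had 1909 of 158120840 counts, and Snora31 (314 counts), Snord91a (305) and Snora57 (231) held 44.5% of these. Summed over the 9 libraries, 32 members reached 10 counts, 7 reached 50 and 5 reached 100, and 11 members were above 0 in every library. A count of 0 over all libraries allows up to 3 counts, or 0.019 CPM, and in a single library the same limit is 0.151 to 0.195 CPM. These limits cover counting error only.

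Whether a member had counts went with its position relative to exons of other genes. In GENCODE M21, 45 members lie wholly within an exon of another gene on their strand, and 0 of these 45 had a count. Of 10 members that such exons cover in part, 5 had counts, 70 in all. Of 58 members that overlap no such exon, 41 had counts (70.7%). Of the H/ACA RNAs, 0 of 18 wholly covered, 3 of 5 partly covered and 11 of 14 free ones had counts, and of the C/D RNAs 0 of 27, 2 of 4 and 26 of 39. Among the other 987 snoRNA rows, 0 of 77 wholly covered, 10 of 30 partly covered and 171 of 880 free ones (19.4%) had counts. The counting rule for overlapping genes is not given in the sources used here, and its part in the zeros was not tested. A 0 in a covered row therefore cannot be read as absence of the RNA.

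**Figure D1:**
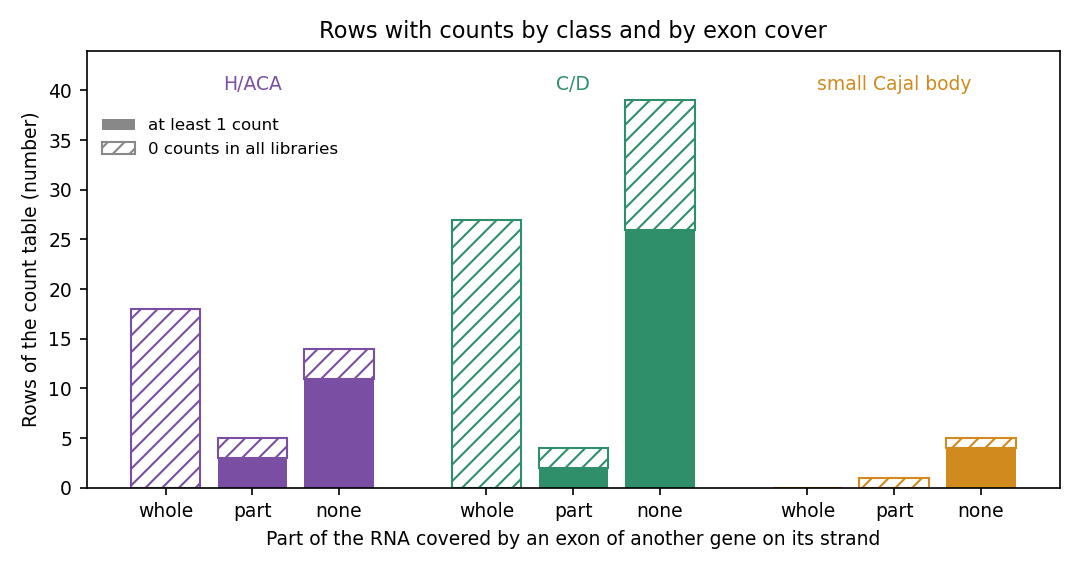
Number of rows (vertical axis) in each class, split by whether exons of other genes on the same strand cover the whole RNA, part of it or none of it (horizontal axis). Filled bars are rows with at least 1 count and hatched bars rows at 0 in all 9 libraries. None of the 18 H/ACA and 27 C/D rows that are wholly covered had a count, and 11 of 14 H/ACA and 26 of 39 C/D rows with no such cover had one.

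Some host genes hold several members. Rpl13a, the gene of a large subunit protein, holds Snord32a, Snord34 and Snord35a, which in mouse and hamster cells are known from the response to lipid stress. None of them overlaps an exon, and they had 39, 5 and 22 counts. Rpl23a holds Snord42b (22 of 69 nt covered, 34 counts) beside Snord42a and Snord4a, which are free of exons on their own strand but lie wholly opposite an exon of Tlcd1, and were at 0. Snhg12 and Gas5, host genes whose own RNA codes for no protein, hold 4 and 3 members, and all 7 overlapped an exon and were at 0.

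A further 17 members overlap no exon on their own strand and were still at 0. They were Snora17, Snora35, Snora73b, Scarna9 and 13 C/D RNAs. Of these, Snora73b, Snord42a and Snord4a lie wholly opposite an exon on the other strand, and the other 14 overlap no exon on either strand. All 41 members with counts and no exon on their own strand were free of exons on the other strand too. Among the 13 C/D RNAs at 0 were Snord118 and Snord13, both of which are known as abundant RNAs. Snora35 lies in an intron of Htr2c, a serotonin receptor gene. Snora73b (U17, also called E1) takes part in ribosomal RNA processing. None of the 112 symbols belongs to the Snord3 (U3) family or to the imprinted Snord113 to Snord116 clusters, which were not analysed here. Other structured small RNAs had few counts too: of 17 looked up, among them Rn7sk, Rmrp and Terc, 10 had a row and 4 a count. Their sum was at most 0.823 CPM in any library.

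**Figure D2:**
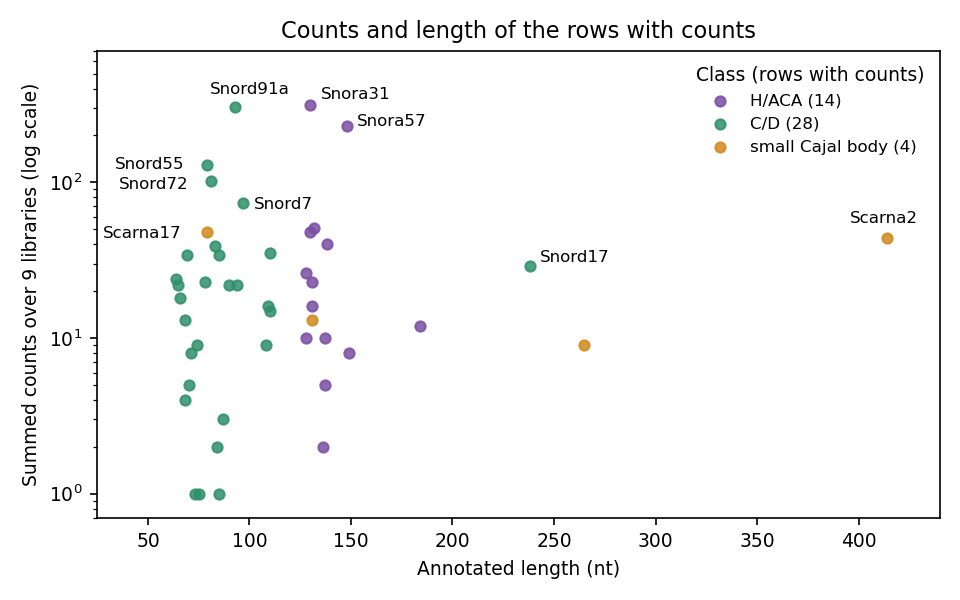
Counts summed over 9 libraries (vertical axis, log scale) against annotated length in nt (horizontal axis) for the 46 members with counts, coloured by class. Counts ranged between 1 and 314, and the longest member, Scarna2 at 414 nt, had 44.

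Length did not order the counts. Across the 46 members with counts, Spearman's rho between length and summed counts was 0.14, a description across RNAs that share the same libraries. Median length was 95.5 nt in members with counts and 89 nt in members at 0, and among members free of exons it was 94 nt and 72 nt. Hosts were annotated for 104 members, and 38 of the 78 with a protein-coding host had counts, against 5 of 26 with another kind of host. Exon cover was not held equal in this contrast. The members in Snhg12 and Gas5, all wholly within exons and at 0, are among the 26. Ribosomal protein genes were hosts of 29 members, 13 of which had counts. Across the 43 members with counts and a host, rho between host and member counts was -0.10.

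Per length, Snord91a had the highest mean level of the named members with 20.6 CPM per kb, followed by Snora31 (15.2), Snord55 (10.3), Snora57 (9.97) and Snord72 (8.17). Snord7 followed at 4.79 CPM per kb and Scarna17 at 3.90. Scarna2 was at 0.686 CPM per kb.

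Enough counts for a test, at least 0.569 CPM in 3 libraries, were present for 5 of the 113 members and for 17171 rows in all. The H/ACA RNAs Snora57 and Snora31 and the C/D RNAs Snord91a, Snord55 and Snord72 passed, and no small Cajal body RNA did. The 3 just inside this limit were Snord72 with 102 summed counts, Snord55 with 129 and Snora57 with 231. Just outside it were Snord7 with 74, Snora41 with 51, and Scarna17 and Snora30 with 48 each.

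Of the 5 tested members Snora57 had the largest log2 changes against control, and it rose under valproic acid. It is an H/ACA RNA of 148 nt with no annotated host on its strand, and it lies opposite Lbhd1 without touching an exon of it. Its counts were 43, 46 and 23 in the valproic acid libraries, 20, 27 and 33 in the poly(I:C) libraries and 8, 11 and 20 in the control libraries. As levels these were 2.51, 2.68 and 1.503 CPM under valproic acid, 1.08, 1.48 and 1.94 CPM under poly(I:C) and 0.472, 0.620 and 0.994 CPM in control. All 6 exposed libraries were above all 3 control libraries, whereas the valproic acid and poly(I:C) libraries overlapped.

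Snora57 rose under valproic acid to 2.23 ± 0.635 CPM, against 0.695 ± 0.269 CPM in control (SD, n = 3 each). The log2 change was 1.66 with SE 0.354 (3.15-fold, 95% interval on the log2 scale 0.90 to 2.41, edgeR adjusted p = 0.0143). It was the member called among the 5 tested, where 6.35% of all tested rows were called, 3.57% higher and 2.78% lower. Without control replicate 1, the library with the lowest Snora57 level, the log2 change was 1.45 and the edgeR adjusted p = 0.0633. With Y-linked expression as a covariate it was 1.25 (edgeR adjusted p = 0.118), and with Xist as a covariate 1.06 (edgeR adjusted p = 0.609). Exposure to valproic acid and Xist cannot be told apart here, since all 3 valproic acid libraries and no control library had Xist. Within the groups Xist set apart poly(I:C) replicate 3 alone, so the Xist fit rests mainly on that library.

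Under poly(I:C) Snora57 was at 1.502 ± 0.429 CPM, against 0.695 ± 0.269 CPM in control (SD, n = 3 each). The log2 change of 1.08 (SE 0.367, 2.11-fold, 95% interval 0.29 to 1.86) did not pass over all rows (edgeR adjusted p = 0.244). Among libraries with Y-linked expression, poly(I:C) replicates 1 and 2 were at 1.08 and 1.48 CPM and control replicates 1 and 2 at 0.472 and 0.620 CPM. Among libraries with Xist, valproic acid was at 2.51, 2.68 and 1.503 CPM and poly(I:C) replicate 3 at 1.94 CPM. Between valproic acid and poly(I:C) the log2 difference was 0.58 (SE 0.320, 95% interval -0.10 to 1.26, edgeR adjusted p = 0.394). Lbhd1, the gene on the opposite strand, was at 8.37 ± 0.736 CPM under valproic acid, 7.48 ± 1.49 CPM under poly(I:C) and 7.53 ± 1.69 CPM in control (SD, n = 3 each), and its groups overlapped in every comparison. Whether the counts were made by strand is not given in the sources used here.

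**Figure D3:**
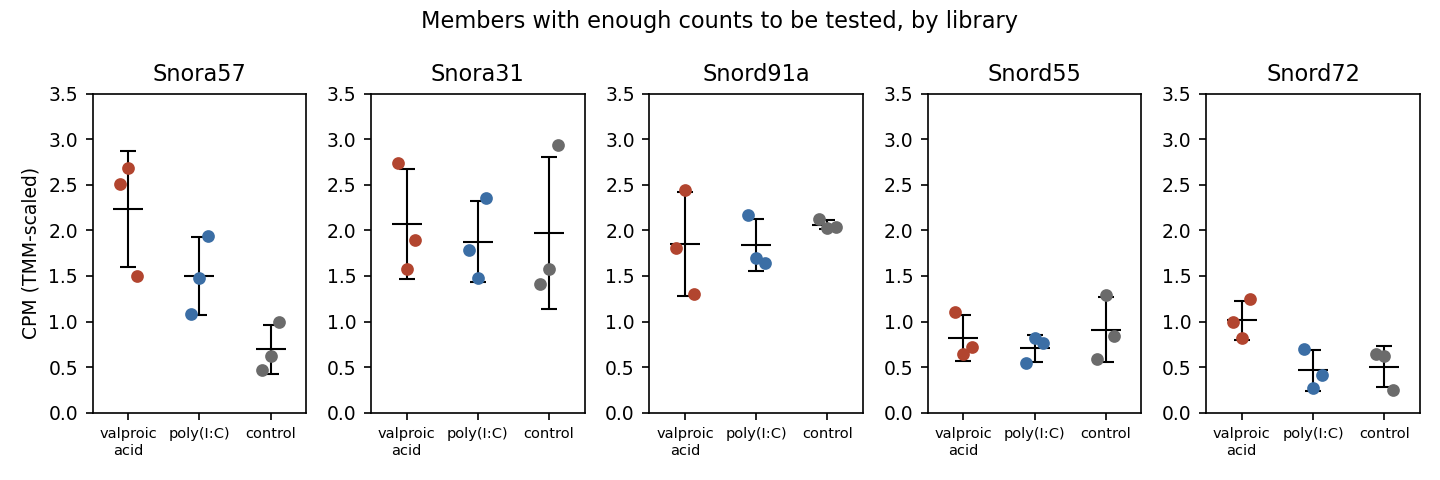
Level in CPM (vertical axis, TMM-scaled) of the 5 members with enough counts, 1 point per library, in valproic acid, poly(I:C) and control brains (horizontal axis), with bars at the mean ± SD. Snora57 lay between 1.503 and 2.68 CPM under valproic acid, above the 0.472 to 0.994 CPM of control, while the groups of Snora31, Snord91a and Snord55 overlapped.

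Snord72, a C/D RNA of 81 nt in an intron of the ribosomal protein gene Rpl37, was highest under valproic acid. It had 17, 14 and 19 counts in the valproic acid libraries, 13, 5 and 7 in the poly(I:C) libraries and 11, 11 and 5 in the control libraries. The valproic acid libraries were above all others in CPM, and poly(I:C) overlapped with control. Its level was 1.02 ± 0.214 CPM under valproic acid, 0.463 ± 0.220 CPM under poly(I:C) and 0.506 ± 0.223 CPM in control (SD, n = 3 each). Neither difference passed over all rows: the log2 change was 1.01 against control (SE 0.443, 2.02-fold, edgeR adjusted p = 0.192) and 1.11 against poly(I:C) (SE 0.449, 2.16-fold, edgeR adjusted p = 0.223). Between poly(I:C) and control the log2 difference was -0.09 with a 95% interval of -1.15 to 0.96.

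Snora31, an H/ACA RNA in an intron of Tpt1, whose human counterpart is known from inherited susceptibility to herpes simplex encephalitis, had counts of 47, 27 and 29 in the valproic acid libraries, 33, 27 and 40 in the poly(I:C) libraries and 24, 28 and 59 in the control libraries. Its groups overlapped, and control replicate 3 was the highest library. The log2 change was 0.05 under valproic acid (95% interval -0.62 to 0.73) and -0.10 under poly(I:C) (95% interval -0.77 to 0.58), both against control. Valproic acid against poly(I:C) gave 0.15 (95% interval -0.53 to 0.83).

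Snord91a, a C/D RNA in an intron of Tsr1, which encodes a ribosome maturation factor, had counts of 31, 42 and 20 in the valproic acid libraries, 40, 31 and 28 in the poly(I:C) libraries and 36, 36 and 41 in the control libraries. The groups overlapped. The log2 change against control was -0.15 under valproic acid (95% interval -0.69 to 0.40) and -0.16 under poly(I:C) (95% interval -0.71 to 0.38). Valproic acid against poly(I:C) gave 0.02 (95% interval -0.54 to 0.57).

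Snord55, a C/D RNA of 79 nt, had counts of 19, 11 and 11 in the valproic acid libraries, 10, 15 and 13 in the poly(I:C) libraries and 10, 23 and 17 in the control libraries. Its groups overlapped too, and control held both the lowest count, shared with poly(I:C) replicate 1, and the highest. The log2 change against control was -0.14 under valproic acid (95% interval -0.97 to 0.68) and -0.36 under poly(I:C) (95% interval -1.19 to 0.47). Valproic acid against poly(I:C) gave 0.22 (95% interval -0.64 to 1.07).

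In total 1 of 5 tested members was called under valproic acid against control. Of the 5, 0 were called for poly(I:C) against control, where 0.536% of all tested rows were called (0.262% higher and 0.274% lower). Likewise 0 of the 5 were called between valproic acid and poly(I:C), where 2.59% of rows were (1.42% higher and 1.18% lower). For valproic acid against control Snora57 and Snord72 had an unadjusted edgeR p under 0.05, as did 22.1% of rows. Only Snora57 was under it for poly(I:C) against control, where 12% of rows were. Only Snord72 was under it for valproic acid against poly(I:C), where 16.7% of rows were. DESeq2 called 0 of the 3 members with an adjusted p for poly(I:C) against control and gave none an adjusted p for valproic acid against poly(I:C), with 1 of 5 at an unadjusted p under 0.05 in each. With 5 members, 1 call is too few to set beside these shares.

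The members below the limit were too sparse to test. Snord7, which guides a modification of the spliceosomal U6 RNA, had 10, 6 and 5 counts under valproic acid, 9, 6 and 8 under poly(I:C) and 5, 14 and 11 in control. The H/ACA RNA Snora41, in the elongation factor gene Eef1b2, had 6, 6 and 7 counts under valproic acid, 3, 3 and 10 under poly(I:C) and 6, 3 and 7 in control. Groups overlapped for both.

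Snora30, in Srcap, a chromatin remodeller gene, had 10, 3 and 4 counts under valproic acid, 9, 0 and 3 under poly(I:C) and 1, 10 and 8 in control. Snora47, in Zbed3, had 7, 3 and 4 counts under valproic acid, 13, 2 and 2 under poly(I:C) and 1, 1 and 7 in control. Snord32a, in Rpl13a, had 3, 5 and 5 counts under valproic acid, 3, 3 and 9 under poly(I:C) and 0, 3 and 8 in control. For each of these 3 RNAs the libraries of at least 1 group differed several fold among themselves.

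Of the small Cajal body RNAs, Scarna17 had 6, 10 and 5 counts under valproic acid, 7, 4 and 5 under poly(I:C) and 7, 1 and 3 in control. Scarna2, which acts on the spliceosomal U2 RNA, had 2, 9 and 6 counts under valproic acid, 2, 4 and 5 under poly(I:C) and 8, 5 and 3 in control. Scarna8, in Haus6, had 2, 0 and 2 counts under valproic acid, 3, 1 and 2 under poly(I:C) and 2, 0 and 1 in control. All 3 overlapped between the groups.

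Snora78 was singled out after its values were seen, because none of its 6 exposed libraries had more counts than the lowest control library, though the groups overlap in CPM. This H/ACA RNA in Snhg9 had 0, 1 and 3 counts under valproic acid, 3, 0 and 1 under poly(I:C) and 10, 3 and 5 in control. It lies opposite Rps2, a ribosomal protein gene, without touching an exon of it. Rps2 was at 6.42, 2.39 and 7.52 CPM under valproic acid, 2.33, 2.63 and 2.41 CPM under poly(I:C) and 6.01, 9.47 and 7.06 CPM in control, and its fall under poly(I:C) passed (3.05-fold lower, edgeR adjusted p = 0.0404) but in none of 6 fits that left out a library.

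Summed over the class, H/ACA RNAs had a higher mean under valproic acid than in control, and the difference was small without Snora57. H/ACA RNAs summed to 7.12, 5.76 and 4.90 CPM under valproic acid, 5.04, 3.51 and 5.94 CPM under poly(I:C) and 3.65, 3.55 and 5.81 CPM in control. The mean was 5.93 ± 1.12 CPM under valproic acid, 4.83 ± 1.23 CPM under poly(I:C) and 4.34 ± 1.28 CPM in control (SD, n = 3 each), and the groups overlapped. Valproic acid over control was 1.37-fold (log2 0.45) with Snora57 and 1.01-fold (log2 0.02) without it. Poly(I:C) over control was 1.11-fold with it and 0.913-fold without it.

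C/D RNAs summed to 8.11, 6.34 and 6.80 CPM under valproic acid, 6.12, 5.27 and 5.76 CPM under poly(I:C) and 5.90, 6.42 and 6.26 CPM in control. All 3 valproic acid libraries were above all 3 poly(I:C) libraries, while valproic acid and control overlapped through control replicate 2. The mean was 7.08 ± 0.915 CPM under valproic acid, 5.72 ± 0.430 CPM under poly(I:C) and 6.19 ± 0.270 CPM in control (SD, n = 3 each). Of these means, Snord72 alone made up 1.02 CPM under valproic acid, 0.463 CPM under poly(I:C) and 0.506 CPM in control. Small Cajal body RNAs averaged 0.890 ± 0.273 CPM under valproic acid, 0.672 ± 0.112 CPM under poly(I:C) and 0.640 ± 0.467 CPM in control, and the control value rested on replicate 1 at 1.18 CPM beside 0.394 and 0.348 CPM. The 987 other snoRNA rows averaged 32.9 ± 2.07 CPM under valproic acid, 31.4 ± 1.17 CPM under poly(I:C) and 30.4 ± 1.14 CPM in control.

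**Figure D4:**
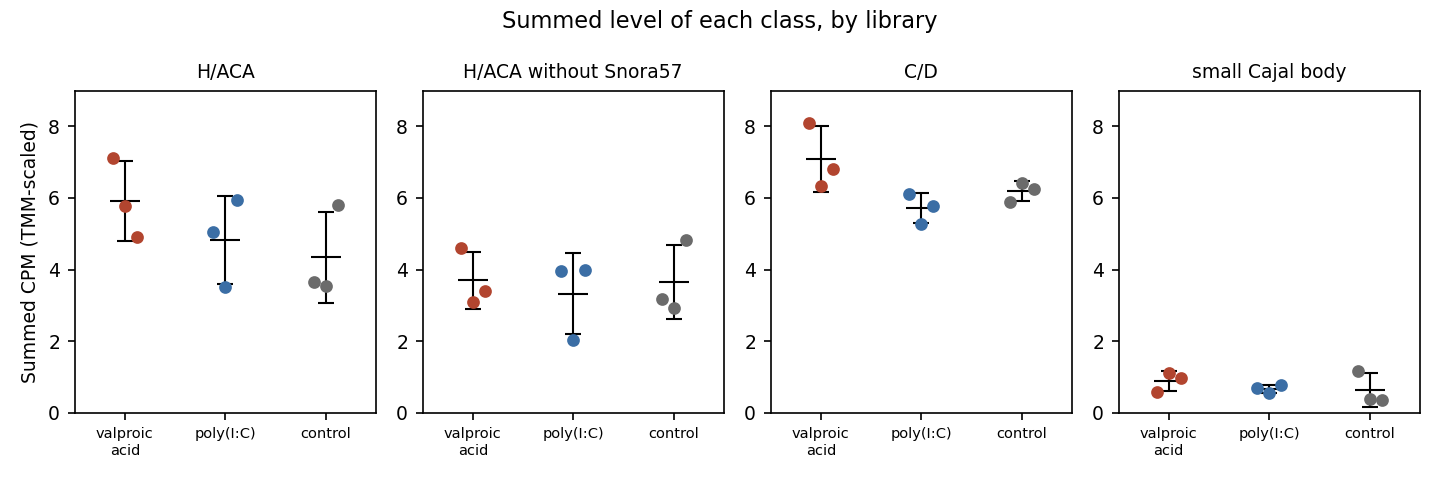
Summed level in CPM (vertical axis, TMM-scaled) of the H/ACA RNAs, of the H/ACA RNAs without Snora57, of the C/D RNAs and of the small Cajal body RNAs, 1 point per library, in valproic acid, poly(I:C) and control brains (horizontal axis), with bars at the mean ± SD. The H/ACA mean under valproic acid was 1.37 times that of control with Snora57 and 1.01 times without it.

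By direction alone, 20 of the 32 members with at least 10 counts had a higher mean under valproic acid than in control (62.5%), against 48.1% of the 23143 rows with as many counts. These were 6 of 11 H/ACA RNAs, 11 of 18 C/D RNAs and 3 of 3 small Cajal body RNAs. Under poly(I:C) 13 of the 32 had a higher mean than in control (40.6%, against 48.1% of rows). The comparisons with control share the control libraries.

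Host genes moved in small steps under valproic acid. Of 83 annotated hosts, 78 were tested. Under valproic acid 22 rose and 2 fell against control, while 3.57% of all tested rows were called higher and 2.78% lower. The median log2 change was 0.11 over the 78 hosts, against -0.0033 over all tested rows. Of the 78, 21 have a symbol of Rpl, Rplp or Rps followed by a digit, and 15 of these rose and 0 fell. Of the other 57, 7 rose and 2 fell. The ribosomal protein gene Rpsa was counted among these 57 and was not called. Rplp2, of the large ribosomal subunit, rose 1.23-fold (edgeR adjusted p = 0.000313), and Rack1, a ribosome-bound scaffold protein, rose 1.23-fold (edgeR adjusted p = 0.00055). The hosts that fell were Ncapd2, a condensin subunit gene that holds Scarna10 (1.27-fold lower, edgeR adjusted p = 0.000912), and Gm38393. None of 17 tested hosts that are not protein-coding passed. With Xist as a covariate the edgeR adjusted p was 0.0847 for Rplp2, 0.251 for Rack1 and 0.294 for Ncapd2. That fit cannot separate Xist from valproic acid, as for Snora57. Poly(I:C) against control gave 1 host that rose, Rps3a1, and 2 that fell, Ncapd2 and Rps2. Of all tested rows 0.262% were called higher and 0.274% lower there. Valproic acid against poly(I:C) gave 12 hosts that rose and 0 that fell, while 1.42% of all tested rows were called higher and 1.18% lower.

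Rps3a1, the host of Snord73a, was at 439, 437 and 426 CPM under valproic acid, 643, 637 and 636 CPM under poly(I:C) and 393, 124 and 118 CPM in control. Its rise under poly(I:C) (3.02-fold, edgeR adjusted p = 0.0406) passed in 1 of 6 fits that left out a library. Snord73a had 3, 1 and 0 counts under valproic acid, 3, 4 and 1 under poly(I:C) and 1, 0 and 0 in control, too few for a test.

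The hosts of 3 tested members can be set beside the members themselves. Rpl37 was at 357, 382 and 336 CPM under valproic acid, 329, 334 and 326 CPM under poly(I:C) and 339, 307 and 300 CPM in control. It rose 1.13-fold under valproic acid against control (edgeR adjusted p = 0.0474), beside a 2.02-fold value for its Snord72 that did not pass. Tpt1, which encodes the translationally controlled tumour protein, rose 1.12-fold under valproic acid against control (edgeR adjusted p = 0.0282), beside a log2 change of 0.05 for Snora31. Tsr1 had a 1.12-fold value that did not pass (edgeR adjusted p = 0.134), beside -0.15 on the log2 scale for Snord91a. The Rpl37 call was kept in 2 of 6 fits without a library and that of Tpt1 in 1. The difference between host and member was not tested, and the SE of the members was several times that of the hosts.

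**Figure D5:**
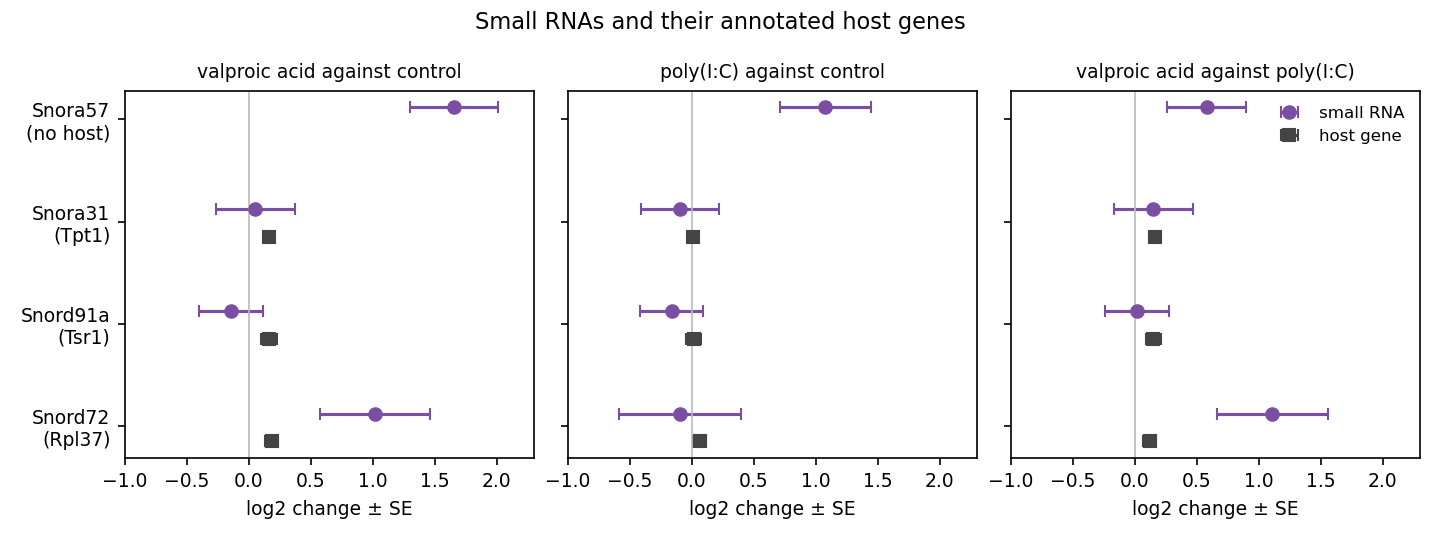
Fitted log2 change ± SE (horizontal axis) of 4 tested members (circles) and their annotated host genes (squares) in the 3 comparisons, 1 row per member (vertical axis). Under valproic acid against control Snora57, which has no host, lay at 1.66 and Snord72 at 1.01, while the 3 hosts lay between 0.16 and 0.18.

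Genes of the proteins that bind these RNAs changed in small steps under valproic acid against control. Of 8 H/ACA proteins and assembly factors, 1 rose: Dkc1, the pseudouridine synthase dyskerin, was at 59.8 ± 1.59 CPM under valproic acid and 51.1 ± 3.76 CPM in control (SD, n = 3 each, 1.17-fold, edgeR adjusted p = 0.0411). Of 13 C/D proteins and assembly factors, 3 rose: Ruvbl2, a particle assembly ATPase (1.15-fold, edgeR adjusted p = 0.0222), Fbl, the methyltransferase fibrillarin (1.10-fold, 0.0454), and Rrp9, a protein of the U3 particle (1.19-fold, 0.0465). Of 11 tested Cajal body and nucleolar proteins 2 rose, nucleolin (Ncl, 1.12-fold, edgeR adjusted p = 0.0212) and nucleophosmin (Npm1, 1.12-fold, 0.0427). Of all tested rows 3.57% were called higher in this comparison. The median log2 change was 0.03 for the H/ACA, 0.08 for the C/D and 0.12 for the Cajal body list, against -0.0033 over all tested rows.

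These calls were close to the threshold. Dkc1 and Rrp9 passed in 0 of 6 fits without a library, Fbl and Npm1 in 1, and Ruvbl2 and Ncl in 3. With Xist as a covariate none of the 6 passed, their edgeR adjusted p lying between 0.224 and 0.800. That fit cannot separate Xist from valproic acid, since Xist set apart only poly(I:C) replicate 3 within its group. Under poly(I:C) against control, where 0.536% of all tested rows were called, 0 of the 32 tested genes of these 3 lists passed. The C/D list still summed to 899.5, 880.9 and 887.7 CPM under poly(I:C), against 829.3, 847.3 and 844.4 CPM in control. Under valproic acid the C/D list summed to 901.4, 906.2 and 900.7 CPM. The H/ACA and the Cajal body sums overlapped between poly(I:C) and control. Under valproic acid against poly(I:C), where 2.59% of all tested rows were called, Ncl passed (1.12-fold, edgeR adjusted p = 0.0448).

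Of the 16 tested non-coding host genes 0 passed in any comparison. Meg3, an imprinted host transcript, was at 1186 ± 206 CPM under valproic acid and 1060 ± 36.7 CPM in control, and Rian at 309 ± 20.4 CPM and 314 ± 7.64 CPM (SD, n = 3 each). Of 5 long RNAs kept in the nucleus, 0 passed, and their sum was 2714, 2150 and 2506 CPM under valproic acid, 2181, 2268 and 2113 CPM under poly(I:C) and 2217, 2228 and 2159 CPM in control. Miat was at 826 ± 140 CPM under valproic acid, against 752 ± 6.58 CPM in control (SD, n = 3 each).

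Some markers of red cells, other cells and brain were called under valproic acid. For poly(I:C) against control 0 markers of these lists were called, where 0.536% of all tested rows were. Of 8 red cell genes 4 rose under valproic acid against control (Slc4a1, Hba-x, Hbb-y and Hbb-bh1), and their list summed to 2429, 2298 and 2115 CPM under valproic acid, 1865, 1628 and 1277 CPM under poly(I:C) and 1877, 1901 and 1640 CPM in control. Against poly(I:C) all 8 rose under valproic acid, with a median log2 difference of 1.10. None of the 8 was at 0 in a group. Of 10 markers of choroid plexus, microglia, endothelium and fibroblasts, Pecam1 rose and P2ry12 and Csf1r fell under valproic acid against control, and Col1a1, Lum and Pecam1 rose against poly(I:C). The list summed to 1052 to 1122 CPM under valproic acid, 955 to 1032 CPM under poly(I:C) and 967 to 1106 CPM in control. Of the 10 brain markers Vim and Pax6 rose and Stmn2 fell under valproic acid against control, and Vim rose against poly(I:C). Over all tested rows 3.57% were called higher and 2.78% lower against control, and 1.42% and 1.18% against poly(I:C). The part of these cells in the Snora57 and Snord72 values was not tested.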

How the data were processed

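RNA-seq of 9 mouse whole brain libraries was used. The authors deposited raw counts per Ensembl gene, which were used as deposited. Per the submitters' processing notes, HISAT2 and the build GRCm39 (mm39) were used. Which counting tool, strand setting and annotation they used is not given in the sources used here. GENCODE M21 (GRCm38) gave symbols, chromosomes, hosts, exon overlap and sequences, and no coordinates are printed. A host is a gene on the same strand that spans the member.

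Rows were kept by filterByExpr (min.count 10, min.total.count 15). All 9 libraries were fitted together by edgeR 4.0.16 (R 4.3.3) with TMM scaling, 1 mean per group and two-sided quasi-likelihood tests. Calls are at p under 0.05 after Benjamini-Hochberg adjustment over all 17171 tested rows. CPM uses TMM factors (0.978 to 1.02). Class sums have no test. DESeq2 1.42.0 was an alternative.

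Members called, the most abundant of each class, those nearest the filter, their hosts, and up to 4 called genes (or the top 2) per list are named. The members and lists were chosen with earlier results of these data known. Chi-square values between libraries of a group were 3.73 to 6.01 times their degrees of freedom, so none was a copy. The fit was tested on simulated data. Some items are not reported here.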

Additional observations from a re-analysis of the deposited data

How the results depend on the processing

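For valproic acid against control, members called came to 0 with Y-linked expression as a covariate, 0 with Xist as a covariate (added after seeing the data) and 0 to 1 without single libraries, where control replicate 1 was the one that ended the call. The cause was not tested, and the Xist fit rests mainly on poly(I:C) replicate 3, which alone departed from its group in Xist. Over all rows these fits called 272, 19 and, without control replicate 1, 467, against 1090 in the reported fit. The no-filter fit called 1661 rows in that comparison and 464 for poly(I:C) against control. With Y-linked expression as a covariate Snora31 was at -0.38 (log2) for valproic acid against control and -0.33 against poly(I:C). With Xist it was at -0.46 and -0.17, and Snord91a at 0.0775 against control. Without single libraries Snora31 ranged from -0.21 to 0.47, -0.29 to 0.32 and -0.11 to 0.34 for valproic acid against control, poly(I:C) against control and valproic acid against poly(I:C). Snord55 ranged from -0.42 to 0.19 for valproic acid against control and -0.0613 to 0.37 against poly(I:C), Snord91a from -0.40 to 0.0441 and -0.23 to 0.21, and Snord72 from -0.53 to 0.17 for poly(I:C) against control.

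Of the class sums (log2 ratios), C/D for valproic acid against control was 0.34 without Snord91a. With the limit of at least 1 CPM in 3 libraries, Snord91a alone was left of the C/D RNAs. The C/D value for valproic acid was then that of this RNA, -0.15 against control and 0.0120 against poly(I:C). H/ACA against control was 0.0204 without Snora57, a choice made after seeing the data. Small Cajal body sums ranged from 0.18 to 1.26 for valproic acid and -0.23 to 0.86 for poly(I:C), both against control, with the highest values without control replicate 1. No small Cajal body RNA reached 1 CPM. DESeq2 gave no adjusted p for any member for valproic acid against control or poly(I:C), so no count of calls is given there. Its unadjusted p for Snora57 against control was 6.88e-05.

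Same-numbered libraries of different groups deviated together with r of -0.04 to 0.13, and differently numbered ones with r of -0.09 to 0.05. The labels name no pairing, and with so few libraries per group these values cannot exclude it. With the replicate block, members called were 1, 0 and 0 and all rows called 912, 88 and 344 for valproic acid against control, poly(I:C) against control and valproic acid against poly(I:C). Low counts limit all members: 108 of 113 had too few to test, and counting error alone is large at these counts. What part depth, library construction or the counting rule had in the low counts was not tested.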
